A study of Arabidopsis thaliana with 18 samples.

Results

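Xyloglucan endotransglucosylase/hydrolases (XTHs) are secreted enzymes that cut xyloglucan, the main hemicellulose of the primary cell wall in this plant, and join the cut end to another chain or to water. Xyloglucan coats and links cellulose microfibrils, and the remodelling of these links accompanies wall loosening in organs that elongate, such as the hypocotyl, the stem between root and cotyledons. The Arabidopsis thaliana family has 33 loci, XTH1 to XTH33, and these loci were taken by name from the gene rows of a read count table of 32833 genes. Of the 33 members, 26 passed the filter on low counts and were tested, and 7 were not (XTH1, XTH2, XTH3, XTH12, XTH13, XTH21 and XTH25). No read was counted in any library for 3 of these 7, XTH1, XTH3 and XTH13, and over all 18 libraries XTH2 had 12, XTH12 had 20, XTH21 had 53 and XTH25 had 9 reads. By sequence the family is usually divided into group 1 (here XTH1 to XTH11), group 2 (XTH12 to XTH26) and group 3 (XTH27 to XTH33). XTH31 and XTH32 form the branch of group 3 that contains hydrolases, which release chains without rejoining them.

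The study measured RNA of hypocotyls moved from darkness to light, by sequencing of poly(A) RNA. It holds 2 genotypes, wild type (WT) and hy1, and 3 times, 0 h (before light), 12 h and 24 h of light, with 3 libraries in each of the 6 groups. HY1 encodes a plastid haem oxygenase needed to build the chromophore of phytochromes, the red and far-red light receptors, and hy1 plants are short of them. The hy1 allele, the ecotype and the age of the seedlings are not given in the sources used here, the titles also call the WT libraries mock, and no dark group at 12 h or 24 h was analysed, so effects of light and of the hours that passed cannot be told apart. Whether the 3 libraries of a group come from different plants or cultures is not stated, and the spread behind each p-value may be technical.

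Library totals ran from 38469946 to 59905064 counts. Within groups, libraries correlated at 0.986 to 0.990, except in WT 12 h and for pairs with WT 24 h replicate 3 (0.965 to 0.969). In WT 12 h replicates 2 and 3 correlated at 0.974, and replicate 1 at 0.944 with replicate 2 and 0.966 with replicate 3, so these values do not say which libraries of that group are unusual. Replicate 1 of WT 12 h was left out in 1 alternative, which moved the calls over all genes between 12 h and 24 h in WT from 769 rises and 1133 falls to 4270 and 4009. Replicates 2 and 3 with WT 24 h replicate 3, named here the 3 libraries set aside, were left out in another. That second fit keeps only replicate 1 for WT 12 h, which is assumed to vary like the other groups, so its 12 h values and calls in WT rest on 1 library and show no stability. HY1 (AT2G26670) measured 42.4 to 47.9 CPM (counts scaled to library size) in WT and 31.6 to 36.3 in hy1 at 0 h, 23.4 to 34.01 against 20.2 to 24.3 at 12 h and 33.9 to 43.2 against 18.4 to 19.4 at 24 h. Transcript was thus present in both genotypes, and without a named allele its level does not check the genotype. The summed CPM of 6 root hair markers stayed at or below 1.61 and that of 3 seed reserve genes at or below 0.568 in every library, and 6 root meristem and cap markers summed to 0.951 to 7.25. In bulk tissue, fewer cells of a type and less RNA per cell cannot be told apart.

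The catalytic site shows what the members have in common. Its coding DNA was found once, within 1 exon, in 32 of the 33 members, and XTH11 held no match to the searched pattern. It is shown for the 14 members with the largest called changes among those of at least 5 CPM in a group, except XTH8 and XTH23. The 30 bases run from 5′ to 3′ on the coding strand of the TAIR10.1 genome (RefSeq). The 3 codons of the acidic catalytic residues (glutamate, aspartate, glutamate) are in capitals.
XTH17: tgggatGAGatcGATttcGAGttcttggga
XTH18: tgggatGAGattGATttcGAGttcttagga
XTH19: tgggatGAGattGATttcGAGtttttgggg
XTH16: cacgacGAGataGACtttGAGtttcttggt
XTH15: catgacGAGataGACtttGAGtttctaggt
XTH22: tgggacGAGataGATttcGAGtttttaggg
XTH4: catgacGAGataGACtttGAGttccttgga
XTH6: agagacGAGctaGATtttGAGttcttggga
XTH9: cacaacGAAttcGATtttGAGttcttaggg
XTH31: cacgatGAGgtcGATatcGAGtttctaggg
XTH32: catgatGAGgtaGACataGAAtttttgggg
XTH33: cacgacGAGataGACataGAAttgttgggt
The XTH17 site lies at chr1:24257679-24257708 on the plus strand, the XTH19 site at chr4:14829561-14829590 on the minus strand and the XTH31 site at chr3:16447882-16447911 on the minus strand. All 32 sites differ in sequence, and the fewest bases any of them shared with XTH17 was 17 of 30, in XTH29 and XTH30. XTH18 shared 28 and XTH19 shared 27 of the 30 bases with XTH17, whereas XTH16 shared 19.

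Several members lie next to each other in the genome. XTH18 and XTH19 are adjacent on chromosome 4 with XTH24 beside XTH18, XTH23 and XTH14 are adjacent on chromosome 4, XTH22 and XTH25 are adjacent on chromosome 5, with XTH13 and XTH12 beyond XTH25, and XTH1 is next to XTH2 on chromosome 4. Coding sequences of XTH18 and XTH19 were 87.6% identical with a longest shared run of 68 bases, and those of XTH17 and XTH18 were 85.6% identical with a run of 47 bases. Reads that mapped to more than 1 place were left out by the authors' counting, and the read length is not given, so counts of XTH17, XTH18 and XTH19 may miss reads that these genes share.

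The windows of 250 bases before the annotated start are shown for XTH17 (chr1:24256804-24257053, plus strand), XTH18 (chr4:14827212-14827461, minus strand) and XTH19 (chr4:14830225-14830474, minus strand), because these 3 transcripts fell most among members of at least 5 CPM. They are given 5′ to 3′ on the coding strand, and capitals mark the letters CACATG read on either strand.
XTH17: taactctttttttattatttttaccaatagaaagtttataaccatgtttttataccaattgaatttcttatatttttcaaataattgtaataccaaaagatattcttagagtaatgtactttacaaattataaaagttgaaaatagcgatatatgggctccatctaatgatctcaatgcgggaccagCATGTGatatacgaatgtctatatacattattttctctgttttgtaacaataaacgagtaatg
XTH18: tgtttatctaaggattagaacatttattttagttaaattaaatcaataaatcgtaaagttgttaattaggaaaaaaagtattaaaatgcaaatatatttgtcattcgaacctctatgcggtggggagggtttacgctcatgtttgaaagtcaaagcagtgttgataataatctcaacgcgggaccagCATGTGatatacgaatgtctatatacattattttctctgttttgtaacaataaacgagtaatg
XTH19: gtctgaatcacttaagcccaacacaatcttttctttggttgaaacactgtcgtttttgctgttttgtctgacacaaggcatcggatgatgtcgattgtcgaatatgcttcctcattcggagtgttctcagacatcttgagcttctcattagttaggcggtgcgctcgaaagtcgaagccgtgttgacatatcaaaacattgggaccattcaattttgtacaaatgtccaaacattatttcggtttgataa
The last 73 bases before the start were identical in XTH17 and XTH18, which lie on different chromosomes. No other pair of members shared more than 4 bases up to the start. Over the whole window XTH17 and XTH18 were 61.8% identical, against 45.6% for XTH17 and XTH19. Both carry CACATG with its first base 63 bases before the start, inside the shared stretch, and XTH19 carries none. Motifs of 6 letters were searched on both strands, CACGTG and CACATG (forms of the E-box, which many bHLH factors bind), TGTCTC and TGTCGG (auxin response elements), and CGTGCG (a brassinosteroid response element). CACATG stood in 5 of 33 members (15.2%), against 11.1% of 27437 promoters of the same length, in XTH17, XTH18, XTH25, XTH26 and XTH33. TGTCTC stood in XTH3 and XTH6 (6.06%, against 10.95% of promoters) and TGTCGG in XTH20 alone (3.03%, against 4.16%). CACGTG and CGTGCG stood in none of the 33 windows, against 6.49% and 1.57% of promoters. These matches describe letters in this window and say nothing about binding.

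Before light, XTH4 was the most abundant member in WT once counts were divided by exon length. In CPM per kb of exon it measured 849.9 ± 56.9 (SD, n = 3), followed by XTH24 at 528 ± 55.6, XTH7 at 487 ± 49.0, XTH31 at 345 ± 18.3, XTH17 at 329 ± 12.3 and XTH18 at 312 ± 22.6. The spreads between libraries of XTH24 and XTH7 overlapped, and so did those of XTH31, XTH17 and XTH18. Within each of these libraries, however, XTH24 lay above XTH7, and XTH31 and XTH17 lay above XTH18. In light the order changed, and XTH31 led in WT with 1768 ± 267 CPM per kb at 12 h and 1471 ± 49.8 at 24 h, above XTH7 (420.1 ± 101 and 398 ± 102). In hy1 the order at 0 h was XTH24 at 746 ± 43.0, XTH7 at 648 ± 75.6 and XTH4 at 435 ± 45.4 CPM per kb. The spreads of XTH24 and XTH7 overlapped, with XTH24 above XTH7 within each hy1 library at 0 h. XTH31 again led in light, at 870.1 ± 71.3 at 12 h and 659 ± 81.3 at 24 h, followed by XTH24 at 368 ± 81.6 and 445 ± 31.8.

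**Figure D1:**
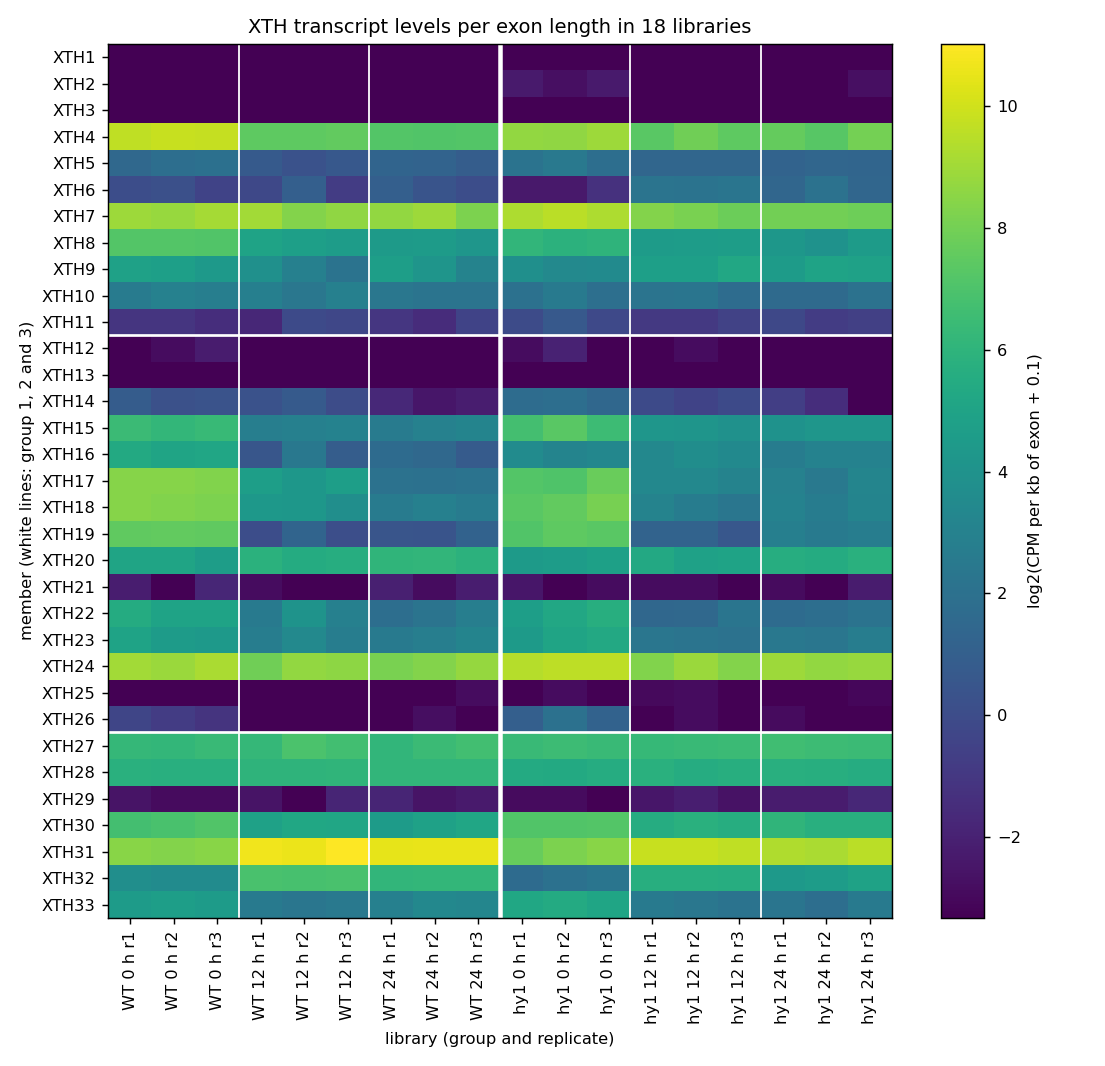
Heat map of the level of each of the 33 XTH members (rows, from XTH1 to XTH33, white lines between groups 1, 2 and 3) in each of the 18 libraries (columns), as log2 of CPM per kb of exon plus 0.1. XTH31 is brightest in the light libraries of both genotypes, XTH4 in WT at 0 h, and the rows of XTH1, XTH3 and XTH13 are at the floor of the scale.

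Summed over all 33 members, the family took 5105 ± 105 CPM in WT at 0 h, 4480 ± 395 at 12 h and 3841 ± 153 at 24 h (SD, n = 3). In hy1 the sums were 4381 ± 375, 2917 ± 247 and 2677 ± 219 CPM. All WT sums at 0 h lay above all those of WT at 12 h and 24 h and of hy1 at each time. With 3 libraries a group an exact permutation test cannot go below p = 0.10, and none was run. XTH31 took 9.41 ± 0.376% of the WT sum at 0 h, 54.8 ± 3.35% at 12 h and 53.4 ± 0.871% at 24 h, while XTH4 went from 26.9 ± 1.97% to 6.57 ± 0.379% and 6.01 ± 0.389%. In hy1, XTH31 went from 8.86 ± 1.63% to 41.6 ± 1.57% and 34.2 ± 1.55%, and XTH4 from 16.1 ± 1.43% to 10.7 ± 1.56% and 12.2 ± 2.21%.

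**Figure D2:**
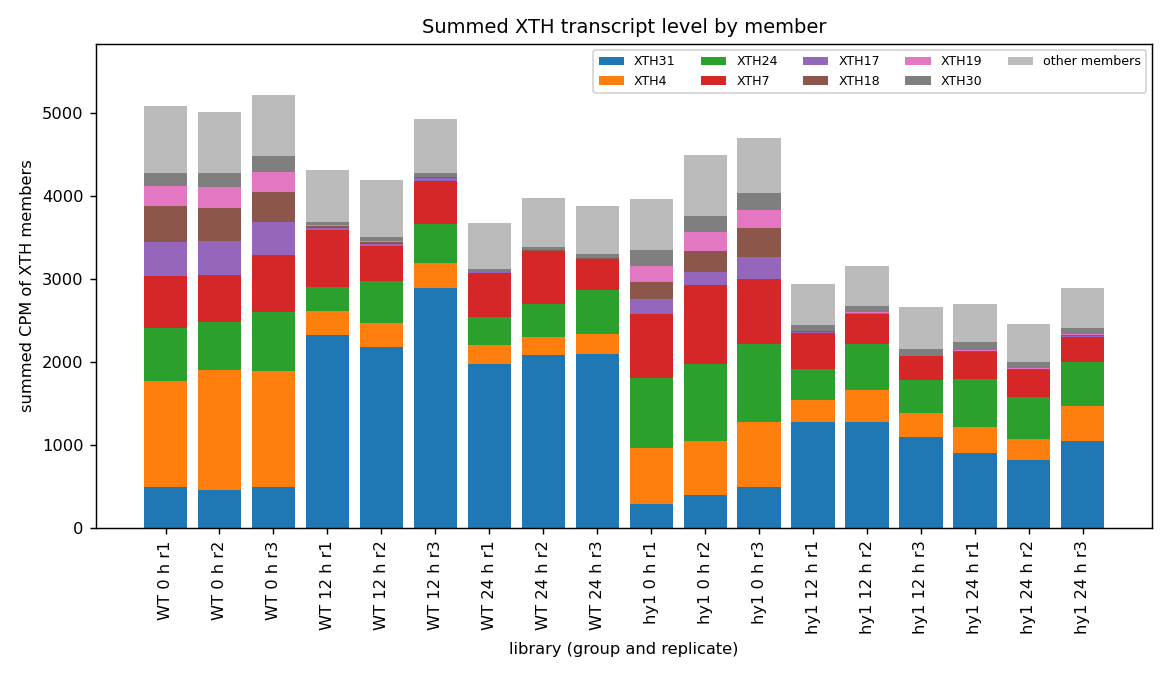
Stacked bars of summed CPM of the XTH family in each library, with the 8 named members coloured and all others in light grey; the bar height is the family sum. XTH31 (blue, lowest) fills 54.8% of the bar on average in WT at 12 h against 9.41% at 0 h, and the bars of XTH17, XTH18 and XTH19 are visible at 0 h but hardly in light.

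In WT, more members fell than rose after the move to light. At 12 h, 15 of the 26 tested members fell and 5 rose (57.7% and 19.2%), where 25.3% of all 20955 tested genes fell and 28.3% rose at an adjusted p under 0.05 (edgeR's quasi-likelihood test, Benjamini-Hochberg over all tested genes). At 24 h, 16 fell and 4 rose (61.5% and 15.4%), against 23.1% and 24.6% of all genes. The median log2 change of the 26 members was -1.43 at 12 h and -1.01 at 24 h, beside 0.01 and 0.02 over all genes. In group 2, 9 of 11 tested members fell at 12 h and 10 of 11 at 24 h, and XTH20 rose at both times. In group 1, 4 of 8 fell and none rose at either time. In group 3, 4 of 7 rose and 2 fell at 12 h, and 3 rose and 2 fell at 24 h. Without WT 12 h replicate 1, 14 fell and 6 rose at 12 h. With the 3 libraries set aside removed, 15 fell and 4 rose at 12 h, where WT holds 1 library, and 16 fell and 5 rose at 24 h.

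The hy1 mutant gave similar counts. At 12 h, 15 of 26 members fell and 6 rose, where 21.3% of all genes fell and 22.9% rose, and at 24 h again 15 fell and 6 rose, where 20.1% fell and 20.4% rose. The median log2 change of the members was -1.13 at 12 h and -0.98 at 24 h, beside 0.01 and -0.00 over all genes. Group 2 had 9 of 11 tested members fall and XTH20 rise at both times. In group 1, XTH6 and XTH9 rose and 4 members fell at each time, and in group 3, 3 of 7 rose and 2 fell. A fit without the 3 libraries set aside, none of which is hy1, called 7 rises and 16 falls at 12 h and 7 rises and 17 falls at 24 h. The WT and hy1 comparisons use separate 0 h libraries, but 12 h and 24 h share theirs within a genotype.

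**Figure D3:**
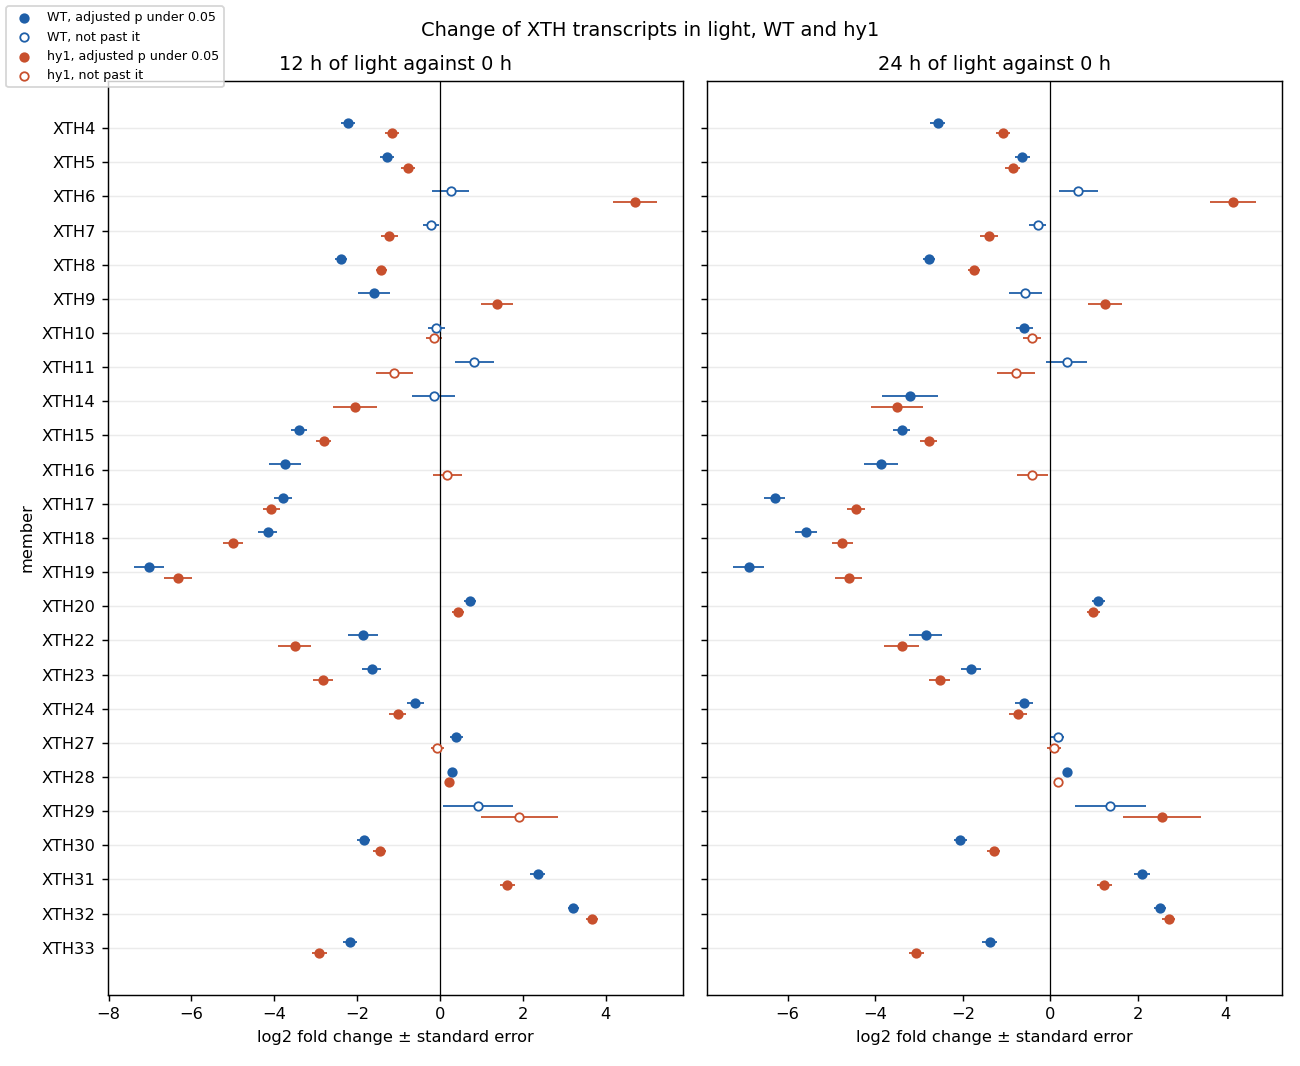
Log2 change in light with its standard error for 25 of the 26 tested members, in WT (blue) and hy1 (orange), at 12 h (left) and 24 h (right) against 0 h; filled points passed an adjusted p of 0.05, and XTH26, whose light libraries held 0 to 2 counts, is left out. XTH17, XTH18 and XTH19 lie farthest left in both genotypes, XTH31 and XTH32 lie right in both, and XTH6, XTH9 and XTH16 differ between blue and orange.

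Among members of group 2 with at least 5 CPM in a group, XTH17, XTH18 and XTH19 fell most. With XTH20 they form a subfamily known for expression in roots. XTH17 (AT1G65310, chr1:24257054-24258506 on the plus strand) is also known as a gene induced by shade. In WT, XTH17 measured 418, 417 and 391 CPM at 0 h, 32.8, 23.9 and 32.1 after 12 h and 5.23, 5.02 and 5.36 after 24 h. In hy1, XTH17 measured 182, 164 and 264 CPM at 0 h, 12.9, 12.8 and 10.6 after 12 h and 9.82, 6.87 and 11.5 after 24 h. Every light library lay below every 0 h library of its genotype. XTH17 changed by -3.79 ± 0.21 (adjusted p = 1.04e-09) on the log2 scale in WT at 12 h and by -6.29 ± 0.23 (adjusted p = 3.06e-11) at 24 h, where it stood 78.5-fold lower than at 0 h. WT kept falling between 12 h and 24 h (-2.51 ± 0.20, adjusted p = 1.71e-06), while in hy1 the change over the same span was -0.37 ± 0.19 and did not pass the test. At 24 h the WT libraries, which had been above hy1 at 0 h and 12 h, were all below hy1.

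XTH18 (AT4G30280, chr4:14825757-14827211 on the minus strand) followed a like course. In WT, XTH18 measured 424, 391 and 367 CPM at 0 h, 24.7, 24.3 and 17.1 after 12 h and 7.80, 9.30 and 7.62 after 24 h. In hy1, XTH18 measured 208, 245 and 345 CPM at 0 h, 10.5, 8.13 and 6.19 after 12 h and 10.4, 8.19 and 10.97 after 24 h. Light libraries and 0 h libraries did not overlap in either genotype. The log2 change of XTH18 was -4.16 ± 0.23 (adjusted p = 1.37e-09) at 12 h and -5.58 ± 0.25 (adjusted p = 1.44e-10) at 24 h in WT, and -5.003 and -4.75 in hy1 (largest adjusted p of the 4 = 1.37e-09). Like XTH17, it fell further in WT from 12 h to 24 h (-1.42 ± 0.21, adjusted p = 0.000647) with no call in hy1 (0.25 ± 0.21).

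XTH19 (AT4G30290, chr4:14828712-14830224 on the minus strand), next to XTH18, had the largest change of the 14 members shown by library. In WT, XTH19 measured 249, 258 and 241 CPM at 0 h, 1.26, 3.21 and 1.34 after 12 h and 1.73, 1.64 and 2.95 after 24 h. In hy1, XTH19 measured 184, 232 and 220.2 CPM at 0 h, 3.03, 3.03 and 1.86 after 12 h and 9.62, 7.70 and 8.78 after 24 h. It stood 130.1-fold lower at 12 h than at 0 h in WT (-7.02 ± 0.35, adjusted p = 4.48e-10, log2) and 80.1-fold lower in hy1 (-6.32 ± 0.34, adjusted p = 1.44e-09). These 12 h changes did not differ between the genotypes at the threshold. Without WT 12 h replicate 1 the WT value at 12 h was -6.80, and with that replicate alone -7.62. Unlike its neighbour, XTH19 rose again in hy1 between 12 h and 24 h, by 1.72 ± 0.29 (adjusted p = 0.00227), and did not do so in WT (0.14 ± 0.31). At 24 h all hy1 libraries lay above all WT libraries.

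XTH20 (AT5G48070), the fourth of this subfamily, went the other way. Its group means were 42.8 ± 6.09, 70.9 ± 8.45 and 91.2 ± 8.83 CPM in WT and 35.1 ± 4.18, 47.3 ± 8.46 and 69.1 ± 6.81 in hy1 (SD, n = 3). XTH20 rose by 0.73 ± 0.15 (adjusted p = 0.000668) and 1.09 ± 0.15 (adjusted p = 1.65e-05) in WT and by 0.98 ± 0.15 (adjusted p = 6.69e-05) in hy1 at 24 h. Its smaller rise in hy1 at 12 h (0.43 ± 0.15, adjusted p = 0.0249) was lost without any 1 of hy1 0 h replicates 1 and 2 or hy1 12 h replicate 1 (adjusted p from 0.071 to 0.14). Its coding sequence was 85.6% identical to that of XTH18.

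**Figure D4:**
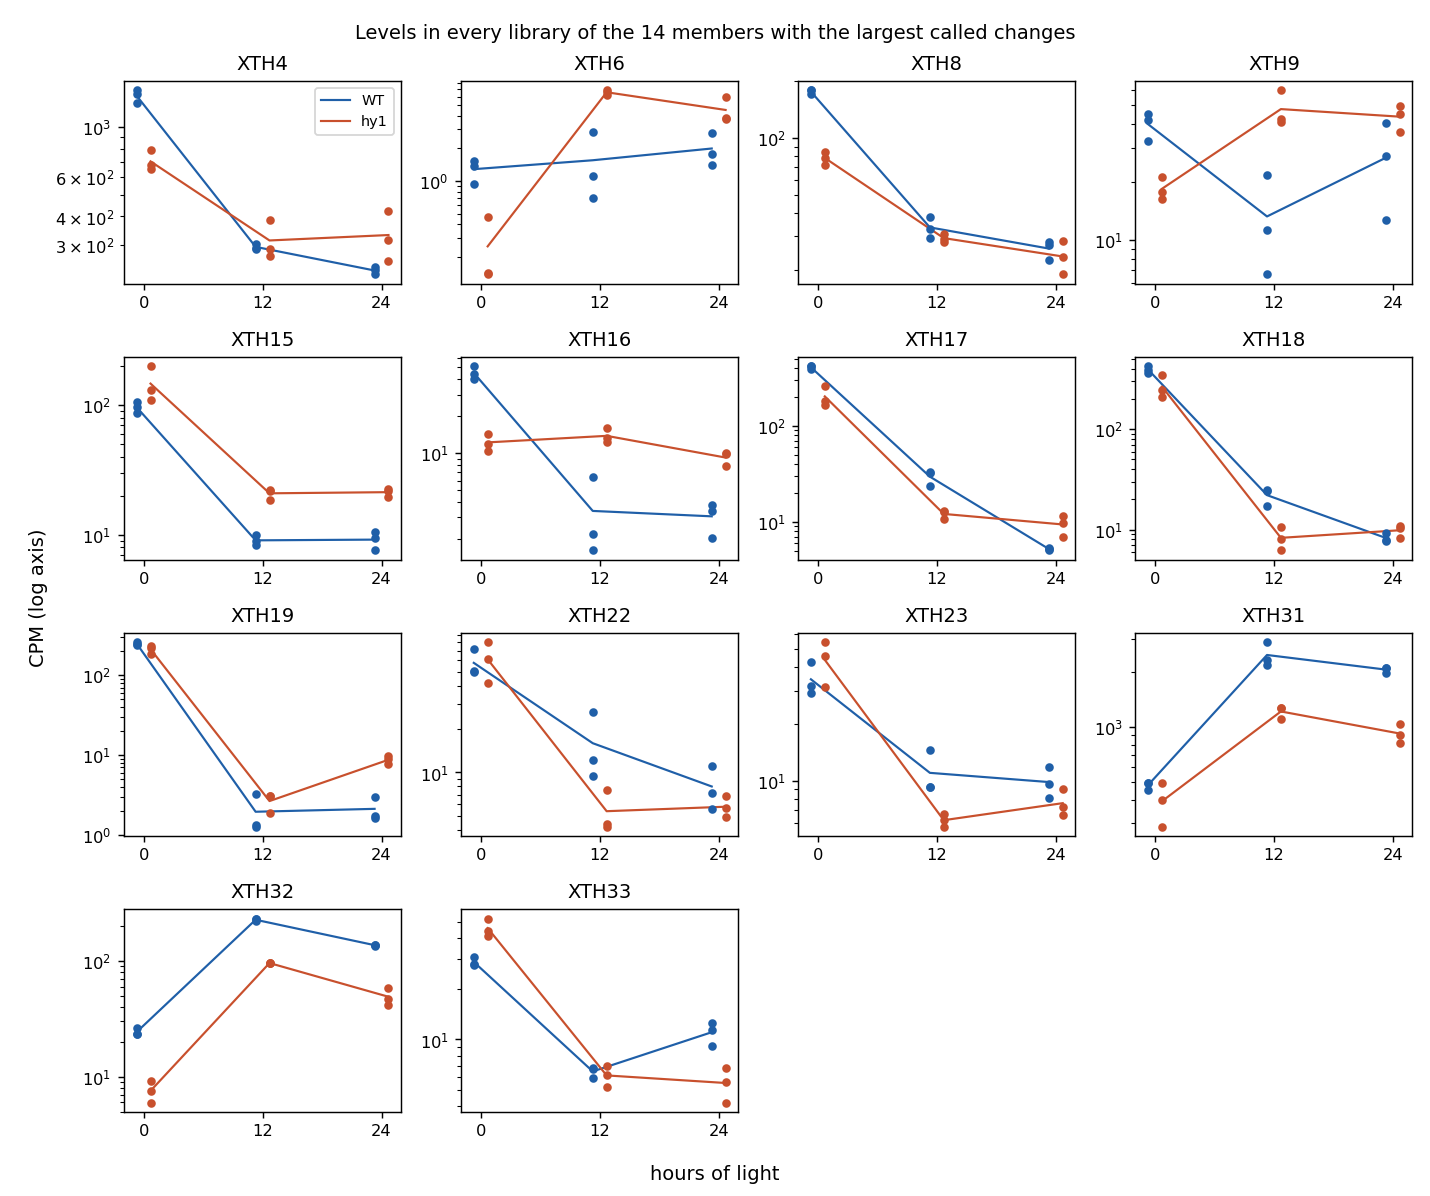
CPM (log axis) against hours of light for the 14 members named by size of change; each point is 1 library, WT in blue and hy1 in orange, and lines join group means. XTH17, XTH18 and XTH19 drop at 12 h in both genotypes, and XTH31 and XTH32 rise in both. XTH16 drops far more in blue than in orange, and XTH6 and XTH9 climb in orange at 12 h. The blue mean of XTH6 rises slightly with no call, and that of XTH9 drops at 12 h and lies higher again at 24 h.

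XTH15 and XTH16 are a pair of group 2 whose coding sequences were 80.5% identical, and XTH15 is known for induction by shade. In WT, XTH15 (AT4G14130, chr4:8137020-8138392 on the minus strand) measured 105, 87.1 and 95.9 CPM at 0 h, 8.29, 8.97 and 9.87 after 12 h and 7.55, 9.37 and 10.6 after 24 h. In hy1, XTH15 measured 130.4, 199 and 109 CPM at 0 h, 22.2, 21.8 and 18.6 after 12 h and 19.4, 21.8 and 22.6 after 24 h. It fell in both genotypes, 10.6-fold at 12 h in WT (-3.41 ± 0.20, adjusted p = 1.84e-09, log2) and 7.01-fold in hy1 (-2.81 ± 0.19, adjusted p = 1.39e-08), and the difference between these changes was not called. In light, XTH15 was higher in hy1 in every library, by 1.204 ± 0.18 (adjusted p = 0.000297) at 12 h and 1.22 ± 0.18 (adjusted p = 0.000322) at 24 h. The difference before light (0.61 ± 0.18, adjusted p = 0.0208) was lost without any 1 of hy1 0 h replicate 2 or WT 0 h replicates 2 and 3 (adjusted p from 0.062 to 0.18) and under limma on FPKM at each of its settings (adjusted p from 0.054 to 0.065).

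XTH16 (AT3G23730, chr3:8550037-8551403 on the plus strand) fell in WT, with no call in hy1 in the fit of all libraries. In WT, XTH16 measured 51.1, 40.1 and 44.3 CPM at 0 h, 1.61, 6.37 and 2.18 after 12 h and 3.79, 3.38 and 2.02 after 24 h. In hy1, XTH16 measured 14.5, 10.4 and 11.9 CPM at 0 h, 12.3, 15.98 and 13.3 after 12 h and 7.86, 9.84 and 9.98 after 24 h. The WT light libraries were all below the WT libraries at 0 h, while the hy1 libraries at 0 h and 12 h overlapped. At 24 h all hy1 libraries lay below all hy1 libraries at 0 h, the highest at 9.98 against the lowest at 10.4 CPM, with no call. A fit without the 3 libraries set aside, none of which is hy1, called falls of XTH16 in hy1 from 0 h to 24 h and from 12 h to 24 h. The log2 change at 12 h was -3.75 ± 0.39 (adjusted p = 9.24e-07) in WT and 0.18 ± 0.34 (adjusted p = 0.714) in hy1, and the difference between these changes was 3.93 ± 0.51 (adjusted p = 0.000228). At 24 h the changes were -3.88 ± 0.39 and -0.41 ± 0.35, with a difference of 3.47 ± 0.51 (adjusted p = 0.000454). XTH16 was thus lower in hy1 before light (-1.88 ± 0.35, adjusted p = 0.00115) and higher in hy1 after 12 h (2.04 ± 0.37, adjusted p = 0.000988) and after 24 h (1.59 ± 0.36, adjusted p = 0.0066). WT 12 h replicate 2 was the highest of its group, and without it the WT change at 12 h was -4.57, the genotype difference at 12 h 2.85 and the difference of changes 4.74. Without replicate 1 they were -3.42, 1.70 and 3.59, and with replicate 1 alone -4.80, 3.10 and 4.98. The change from 12 h to 24 h in WT was -0.13 with no call, and its sign turned with replicate 1 alone (1.15).

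XTH22, also called TCH4 and first described as a gene induced by touch, and XTH23 were 79.2% identical in coding sequence. In WT, XTH22 (AT5G57560, chr5:23307006-23308680 on the minus strand) measured 72.4, 49.7 and 50.7 CPM at 0 h, 9.41, 26.3 and 12.1 after 12 h and 5.60, 7.23 and 11.1 after 24 h. In hy1, XTH22 measured 41.9, 61.2 and 79.8 CPM at 0 h, 4.21, 4.41 and 7.53 after 12 h and 4.88, 5.63 and 6.85 after 24 h. Light and 0 h libraries did not overlap in either genotype, and WT 12 h replicate 2 lay above the other light libraries. The log2 change was -1.85 ± 0.37 (adjusted p = 0.000573) at 12 h and -2.85 ± 0.38 (adjusted p = 1.57e-05) at 24 h in WT, and -3.50 ± 0.40 (adjusted p = 3.02e-06) and -3.40 ± 0.39 (adjusted p = 4.56e-06) in hy1. The WT value at 12 h was -1.58 without replicate 1 and -2.61 with replicate 1 alone. The lower level in hy1 at 12 h (-1.57 ± 0.37, adjusted p = 0.00611) was lost under a fit of the compared groups alone and a fit without the 3 libraries set aside, where WT 12 h is replicate 1 alone (adjusted p from 0.063 to 0.13).

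In WT, XTH23 (AT4G25810, chr4:13128394-13129927 on the plus strand) measured 42.8, 31.8 and 29.1 CPM at 0 h, 9.27, 14.5 and 9.27 after 12 h and 8.12, 9.60 and 11.8 after 24 h. In hy1, XTH23 measured 31.3, 46.00 and 54.3 CPM at 0 h, 6.65, 6.16 and 5.71 after 12 h and 7.23, 6.57 and 9.01 after 24 h. It fell 3.14-fold in WT (adjusted p = 2.06e-05) and 7.10-fold in hy1 (adjusted p = 1.34e-07) at 12 h, and no light library reached the level of a 0 h library. The lower level in hy1 at 12 h (-0.83 ± 0.23, adjusted p = 0.0132) was lost without WT 12 h replicate 2 (adjusted p = 0.079) and under a fit of the compared groups alone and a fit without the 3 libraries set aside, where WT 12 h is replicate 1 alone (adjusted p from 0.059 to 0.15).

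XTH24 (AT4G30270), also called MERI5 and abundant here, fell less. Its group means were 639 ± 67.3, 422 ± 116 and 420.3 ± 98.2 CPM in WT and 903 ± 52.1, 445 ± 98.7 and 538 ± 38.5 in hy1. In hy1 it fell, with a log2 change of -1.02 ± 0.21 (adjusted p = 0.000841) at 12 h and -0.75 ± 0.21 (adjusted p = 0.00876) at 24 h. In WT the call at 12 h (-0.60 ± 0.21) was lost without any 1 of WT 0 h replicates 1 and 3 or WT 12 h replicate 1 (adjusted p from 0.056 to 0.088) and under a fit of the compared groups alone (adjusted p = 0.081), and the call at 24 h (-0.61 ± 0.21) was lost without any 1 of WT 0 h replicates 1 and 3 or WT 24 h replicates 1 and 2 (adjusted p from 0.056 to 0.11).

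XTH14 and XTH26 were low throughout. XTH14 (AT4G25820) had group means of 1.55 ± 0.388, 1.40 ± 0.383 and 0.162 ± 0.0743 CPM in WT and 3.70 ± 0.544, 0.894 ± 0.115 and 0.316 ± 0.316 in hy1, and fell at 24 h in both (-3.21 ± 0.64, adjusted p = 0.000642 and -3.51 ± 0.59, adjusted p = 0.000181). Without hy1 24 h replicate 1 the hy1 value was -4.53. XTH26 (AT4G28850), known from root hairs, had 34, 24 and 18 reads in the WT libraries at 0 h, none in any WT library at 12 h and 2 in 1 library at 24 h. In hy1 it had 98, 205 and 108 reads at 0 h, 2 over all 12 h libraries and 2 over all 24 h libraries. Of all counts from 1 to 10, 75.2% were even, and the counting did not join the mates of a pair, so the limits here take 2 counts as 1 read pair. In WT at 12 h XTH26 was at least 12.6-fold lower than at 0 h, taking a floor of 3 read pairs (6 counts) over the group. The ratio of 0 h to 24 h in WT was 38.7 with a 95% counting interval of 6.53 to 1566, and in hy1 the ratios of 0 h to 12 h and to 24 h were 244 (43.3 to 9691) and 221 (39.3 to 8779). Before light XTH26 was higher in hy1 in every library (2.42 ± 0.54, adjusted p = 0.00544). At 0 h root hair markers summed to 0 to 1.61 CPM in WT and 0.0469 to 0.426 in hy1. Root meristem and cap markers summed to 0.951 to 1.18 CPM in WT and 3.92 to 4.83 in hy1 at 0 h. Of these, PLT1, PLT2 and WOX5 were higher in every hy1 library at 0 h. SMB overlapped between the genotypes, and BRN1 and BRN2 had at most 0.0469 CPM. The part of either list in this result was not tested.

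In group 1, XTH4 (AT2G06850, chr2:2763449-2765743 on the plus strand), known from stems and developing wood, had the highest CPM of all members in WT before light. In WT, XTH4 measured 1272, 1452 and 1394 CPM at 0 h, 289, 288 and 303 after 12 h and 232, 221 and 238 after 24 h. In hy1, XTH4 measured 675, 647 and 785 CPM at 0 h, 267, 386 and 286 after 12 h and 315, 254 and 424 after 24 h. All 0 h libraries lay above all light libraries in both genotypes. XTH4 fell, with a log2 change of -2.23 ± 0.17 (adjusted p = 4.38e-08) and -2.58 ± 0.18 (adjusted p = 1.05e-08) on the log2 scale in WT and by -1.17 ± 0.17 (adjusted p = 3.67e-05) and -1.09 ± 0.17 (adjusted p = 8.25e-05) in hy1. Before light it was 1.95-fold lower in hy1 (-0.97 ± 0.17, adjusted p = 0.000642), and at 12 h the genotypes overlapped. The higher level in hy1 at 24 h (0.52 ± 0.17, adjusted p = 0.0363) was lost without any 1 of hy1 24 h replicates 1 and 3 or WT 24 h replicates 1, 2 and 3 (adjusted p from 0.053 to 0.18) and under limma on log2(FPKM + 1) with no filter and a fit of the compared groups alone (adjusted p from 0.062 to 0.1).

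XTH8 (AT1G11545, chr1:3878495-3880391 on the minus strand) took the same course at a lower level. In WT, XTH8 measured 179, 179 and 171 CPM at 0 h, 38.2, 32.97 and 29.3 after 12 h and 26.9, 28.1 and 22.6 after 24 h. In hy1, XTH8 measured 84.7, 71.6 and 78.7 CPM at 0 h, 28.2, 29.2 and 30.7 after 12 h and 23.4, 18.8 and 28.2 after 24 h. It fell, with a log2 change of -2.40 ± 0.14 (adjusted p = 2.2e-09) in WT and by -1.42 ± 0.14 (adjusted p = 5.85e-07) in hy1 at 12 h. Before light it was 2.25-fold lower in hy1 (adjusted p = 2.69e-05), and in light the genotypes overlapped (-0.19 ± 0.13 at 12 h and -0.14 ± 0.14 at 24 h).

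XTH6 (AT5G65730, chr5:26298728-26300529 on the plus strand) rose in hy1 from a low level. In WT, XTH6 measured 1.38, 1.54 and 0.934 CPM at 0 h, 1.12, 2.84 and 0.700 after 12 h and 2.79, 1.79 and 1.41 after 24 h. In hy1, XTH6 measured 0.142, 0.137 and 0.469 CPM at 0 h, 6.67, 6.23 and 6.88 after 12 h and 3.83, 6.01 and 3.73 after 24 h. The 0 h libraries of hy1 held 6, 6 and 20 reads. Every hy1 light library was above every WT library. In hy1 the log2 change was 4.71 ± 0.54 (adjusted p = 3.24e-06) at 12 h and 4.17 ± 0.53 (adjusted p = 1.24e-05) at 24 h, and in WT it was 0.26 ± 0.46 and 0.64 ± 0.45, with no call. The difference of these changes was 4.45 ± 0.70 (adjusted p = 0.000944) at 12 h and 3.53 ± 0.69 (adjusted p = 0.00425) at 24 h. XTH6 was lower in hy1 before light (-2.35 ± 0.54, adjusted p = 0.00515) and higher at 12 h (2.101 ± 0.44, adjusted p = 0.00289). The genotype difference of XTH6 at 24 h was not called. These sizes moved with single libraries: without hy1 0 h replicate 3 the hy1 changes were 5.53 and 4.998, the genotype difference at 0 h -3.18 and the differences of changes 5.28 and 4.37. Without WT 12 h replicate 2 the genotype difference at 12 h was 2.85 and the difference of changes 5.22. Without the 3 libraries set aside, the rise of XTH6 in WT from 0 h to 24 h was called.

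XTH9 (AT4G03210, chr4:1415617-1417444 on the plus strand), known from stems and shoot apices, moved in opposite directions in WT and hy1 at 12 h. In WT, XTH9 measured 45.1, 41.6 and 32.7 CPM at 0 h, 21.8, 11.2 and 6.63 after 12 h and 40.3, 27.1 and 12.6 after 24 h. In hy1, XTH9 measured 21.1, 16.3 and 17.8 CPM at 0 h, 41.1, 42.2 and 59.7 after 12 h and 36.1, 49.5 and 45.1 after 24 h. At 12 h the hy1 libraries lay above their 0 h libraries and the WT libraries below theirs. The log2 change at 12 h was -1.59 ± 0.39 (adjusted p = 0.00289) in WT and 1.37 ± 0.38 (adjusted p = 0.00853) in hy1, and their difference was 2.96 ± 0.55 (adjusted p = 0.00296). The WT change and the difference were -2.16 and 3.53 without WT 12 h replicate 1, the highest of its group, and -0.87 and 2.24 with that replicate alone. XTH9 was higher in hy1 at 12 h by 1.85 ± 0.39 (adjusted p = 0.00293), with 2.41 without replicate 1 and 1.13 with it alone. At 24 h the WT and hy1 libraries overlapped, and the genotype difference was not called. The call on the hy1 change from 0 h to 24 h (1.24 ± 0.38, adjusted p = 0.0167) was lost without hy1 0 h replicate 2 (adjusted p = 0.056). The difference before light (-1.11 ± 0.38, adjusted p = 0.0449) was lost without any 1 of hy1 0 h replicates 1, 2 and 3, hy1 12 h replicate 2, hy1 24 h replicates 1, 2 and 3, WT 0 h replicates 1 and 2 or WT 24 h replicate 2 (adjusted p from 0.051 to 0.13) and under limma on log2(FPKM + 1) with no filter (adjusted p = 0.051).

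Markers of other cell types also differed between groups. The summed CPM of 3 shoot meristem markers (STM, CLV3 and WUS) was 18.5 to 27.5 in WT at 0 h, 4.87 to 10.3 at 12 h and 3.24 to 8.75 at 24 h, and 13.97 to 15.9, 16.9 to 24.1 and 15.2 to 19.6 in hy1. Nearly all of this was STM, a regulator of the shoot apical meristem, with 22.7, 6.97 and 5.96 CPM in WT and 15.1, 20.8 and 17.1 in hy1. CLV3 and WUS had group means of at most 0.192 CPM, CLV3 was at 0 in hy1 at 0 h and WUS at 0 in WT at 24 h. The summed CPM of 6 stomatal lineage markers was 3.96 to 7.33, 4.22 to 14.5 and 3.64 to 7.35 in WT and 1.22 to 2.15, 12.7 to 21.1 and 4.86 to 9.52 in hy1, with none of the 6 at 0 in any group. FAMA, of the same list, went against the sum at 12 h, with 2.27, 2.76 and 3.32 CPM in WT and 0.807, 0.807 and 0.757 in hy1. It was lower in hy1 in every library at each time. The highest WT sum was that of WT 12 h replicate 2, where SPCH measured 9.16 CPM, against 0.866 and 0.577 in replicates 1 and 3. The part of either list in the results on XTH6, XTH9 and XTH16 was not tested.

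The other members of group 1 changed less. XTH7 (AT4G37800) had group means of 627 ± 63.1, 541 ± 129.9 and 513 ± 131 CPM in WT and 835 ± 97.3, 357 ± 69.99 and 316 ± 12.6 in hy1, and fell in hy1 (-1.23 ± 0.20, adjusted p = 0.000132 and -1.40 ± 0.20, adjusted p = 4.36e-05) with no call in WT. XTH7 was called lower in hy1 than in WT at 12 h and 24 h. Leaving aside the thresholds of p and fold, these calls were lost under 9 and 6 alternatives. XTH5 (AT5G13870) fell in WT at 12 h with a log2 difference of -1.28 ± 0.18 (adjusted p = 2.33e-05) from 6.40 ± 1.002 CPM and in hy1 with a log2 difference of -0.77 ± 0.17 (adjusted p = 0.00182) from 8.48 ± 1.78. At 12 h XTH5 was higher in hy1 by 0.91 ± 0.18 (adjusted p = 0.00182). XTH10 (AT2G14620) kept group means between 4.57 and 9.53 CPM, and its lower level in hy1 at 0 h (-0.63 ± 0.20, adjusted p = 0.0329) was lost without any 1 of hy1 0 h replicates 1 and 3 or WT 0 h replicates 2 and 3 (adjusted p from 0.064 to 0.13). XTH10 was also called lower in hy1 at 12 h (-0.69, log2) and lower in WT at 24 h than at 0 h. The first call was lost without hy1 12 h replicate 3, without WT 12 h replicate 3 and under a fit of the compared groups alone. The second was lost without any 1 of WT 0 h replicate 2 or WT 24 h replicates 2 and 3. XTH11 (AT3G48580) never exceeded 1.86 CPM, and its higher level in hy1 at 0 h (1.66 ± 0.46, adjusted p = 0.0151) was lost without any 1 of hy1 0 h replicate 2 or WT 0 h replicate 3 (adjusted p from 0.063 to 0.088).

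In group 3, XTH31 (AT3G44990, chr3:16446935-16448844 on the minus strand), which acts mainly as a hydrolase when assayed in vitro, became the most abundant member in light. In WT, XTH31 measured 495, 451 and 496 CPM at 0 h, 2325, 2181 and 2884 after 12 h and 1969.9, 2083 and 2096 after 24 h. In hy1, XTH31 measured 286, 399.6 and 491 CPM at 0 h, 1269.9, 1269 and 1097 after 12 h and 898, 817 and 1040.3 after 24 h. Light and 0 h libraries did not overlap in either genotype. It rose 5.13-fold at 12 h in WT (2.36 ± 0.18, adjusted p = 2.91e-08, log2) and 3.09-fold in hy1 (1.63 ± 0.17, adjusted p = 1.53e-06). The difference between these changes at 12 h was not called. At 0 h the genotypes overlapped, and in light every hy1 library was below every WT library with a log2 difference of -1.02 ± 0.17 (adjusted p = 0.000569) at 12 h and -1.16 ± 0.17 (adjusted p = 0.000257) at 24 h. The smaller change in hy1 than in WT at 24 h (-0.87 ± 0.24, adjusted p = 0.0332) was lost without any 1 of hy1 0 h replicates 2 and 3, hy1 12 h replicates 1 and 2, hy1 24 h replicates 1 and 2, WT 0 h replicates 1, 2 and 3 or WT 24 h replicates 1, 2 and 3 (adjusted p from 0.05 to 0.11) and under limma on FPKM at each of its settings (adjusted p from 0.091 to 0.15).

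XTH32 (AT2G36870, chr2:15472607-15474828 on the minus strand), of the same branch, rose with it. In WT, XTH32 measured 26.2, 23.4 and 23.3 CPM at 0 h, 228, 219 and 232 after 12 h and 135, 137 and 138 after 24 h. In hy1, XTH32 measured 5.97, 7.58 and 9.09 CPM at 0 h, 95.4, 96.8 and 95.01 after 12 h and 41.8, 47.2 and 57.9 after 24 h. The rise at 12 h was 9.32-fold in WT (3.22 ± 0.14, adjusted p = 1.03e-10, log2) and 12.7-fold in hy1 (3.66 ± 0.15, adjusted p = 6.41e-11). The level fell back between 12 h and 24 h in hy1 with a log2 difference of -0.97 ± 0.13 (adjusted p = 0.00034), and the same change in WT (-0.73 ± 0.13, adjusted p = 0.00241) was lost under a fit of the compared groups alone (adjusted p = 0.078). Unlike XTH31, XTH32 was lower in hy1 already before light (-1.69 ± 0.14, adjusted p = 1.41e-06), and it remained so at 12 h (-1.24 ± 0.13, adjusted p = 1.63e-05) and 24 h (-1.48 ± 0.13, adjusted p = 3.04e-06), with no overlap at any time. The difference of the light responses did not pass the test at 12 h (0.44 ± 0.19, adjusted p = 0.118) or at 24 h (0.21 ± 0.19, adjusted p = 0.589).

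XTH33 (AT1G10550, chr1:3479066-3481041 on the minus strand), whose protein is thought to be held at the plasma membrane, fell in both genotypes. In WT, XTH33 measured 28.2, 31.01 and 27.7 CPM at 0 h, 6.76, 5.92 and 6.69 after 12 h and 9.18, 12.6 and 11.4 after 24 h. In hy1, XTH33 measured 44.03, 52.5 and 41.5 CPM at 0 h, 6.94, 6.18 and 5.21 after 12 h and 5.59, 4.21 and 6.73 after 24 h. It fell, with a log2 change of -2.16 ± 0.17 (adjusted p = 4.36e-08) in WT and -2.91 ± 0.17 (adjusted p = 3.39e-09) in hy1 at 12 h, and by -1.39 ± 0.16 (adjusted p = 3.68e-06) and -3.06 ± 0.17 (adjusted p = 2.33e-09) at 24 h. The rise in WT from 12 h to 24 h (0.77 ± 0.16, adjusted p = 0.00797) was lost under a fit of the compared groups alone and a fit without the 3 libraries set aside, where WT 12 h is replicate 1 alone (adjusted p = 0.15 under both). Before light XTH33 was higher in hy1 (0.67 ± 0.16, adjusted p = 0.00622), and at 24 h it was lower (-1.003 ± 0.17, adjusted p = 0.000672), with no overlap at either time.

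XTH30 (AT1G32170) fell in both genotypes, from 170.5 ± 23.7 to 47.7 ± 5.37 and 41.00 ± 8.73 CPM in WT (-1.84 ± 0.15, adjusted p = 9.88e-08 and -2.06 ± 0.16, adjusted p = 2.98e-08) and from 195 ± 4.09 to 70.9 ± 5.74 and 79.7 ± 10.7 in hy1 (-1.46 ± 0.15, adjusted p = 1.29e-06 and -1.29 ± 0.15, adjusted p = 5.2e-06). It was higher in hy1 at 24 h by 0.96 ± 0.15 (adjusted p = 0.000455). XTH28 (AT1G14720), known from stamen filaments, moved little: its group means lay between 66.00 and 103 CPM, and it rose in WT at 24 h by 0.38 ± 0.08 (adjusted p = 0.00066) and was lower in hy1 at 24 h with a log2 difference of -0.47 ± 0.08 (adjusted p = 0.000654). XTH27 (AT2G01850), known from leaf veins, had a call in WT at 12 h alone (0.40 ± 0.16, adjusted p = 0.0415), with overlapping libraries. That call was lost under 21 alternatives (adjusted p from 0.05 to 0.27), among them 15 of the 18 libraries left out singly, and it was 0.57 without WT 12 h replicate 1 and -0.018 with that replicate alone. XTH29 (AT4G18990) had at most 12 reads in any library, and its rise in hy1 at 24 h (2.56 ± 0.89, adjusted p = 0.0312) was lost without any 1 of hy1 0 h replicates 1, 2 and 3 or hy1 24 h replicate 3 (adjusted p from 0.054 to 0.11).

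Between 12 h and 24 h few members moved. In WT, 4 fell and 2 rose, where 5.41% of all genes fell and 3.67% rose, and in hy1 1 fell and 2 rose, where 2.54% fell and 2.35% rose. Those that fell in WT were XTH14, XTH17, XTH18 and XTH32, and those that rose were XTH5 and XTH33. The calls on XTH5 and XTH33 did not hold throughout. In a fit of the compared groups alone adjusted p was 0.34 and 0.15, without the 3 libraries set aside, where WT 12 h is 1 library, 0.22 and 0.15, and the call on XTH5 was also lost without any 1 of hy1 12 h replicate 2, WT 0 h replicate 2, WT 12 h replicates 2 and 3 or WT 24 h replicates 1 and 2. The call on XTH14 was lost under limma on log2(FPKM + 0.1), a fit of the compared groups alone and a fit without the 3 libraries set aside, where WT 12 h is replicate 1 alone (adjusted p from 0.053 to 0.073). Without WT 12 h replicate 1, 6 members fell and 4 rose in WT, in a fit that called 4009 falls and 4270 rises over all genes. The higher member counts thus came with far more calls over all genes. In hy1, XTH32 fell and XTH19 and XTH20 rose, of which the call on XTH20 (0.54 ± 0.15, adjusted p = 0.0428) was lost without any 1 of hy1 12 h replicates 2 and 3 or hy1 24 h replicates 1, 2 and 3 (adjusted p from 0.052 to 0.16) and under limma on FPKM at each of its settings (adjusted p from 0.062 to 0.074).

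Between the genotypes, the members differed in both directions. Before light, 9 of 26 members were lower and 4 higher in hy1, where 12.4% of all genes were lower and 12.2% higher. At 12 h, 10 were lower and 6 higher, where 17.8% and 14.9% of all genes were, and at 24 h 5 were lower and 6 higher, where 10.2% and 10.5% were. The median log2 difference of the members was -0.24, -0.23 and 0.21 at the 3 times, beside -0.01, 0.01 and -0.04 over all genes. XTH28 and XTH32 were lower and XTH15 higher in hy1 at each of the 3 times. In XTH28 the call at 0 h (-0.26 ± 0.08) was lost without any 1 of hy1 0 h replicates 1 and 2 or WT 0 h replicates 1 and 2 (adjusted p from 0.059 to 0.1) and under no filter on low counts (adjusted p = 0.058), and the call at 12 h (-0.34 ± 0.08) was lost under a fit of the compared groups alone (adjusted p = 0.12). XTH16 was lower in hy1 at 0 h and higher at both light times, and XTH17 lower at 0 h and 12 h and higher at 24 h. In group 2, none of the 11 tested members was lower in hy1 at 24 h and 4 were higher, XTH15, XTH16, XTH17 and XTH19. The 3 comparisons use separate libraries. A fit without the 3 libraries set aside had 10 members lower and 8 higher before light, with XTH5, XTH7, XTH14, XTH18 and XTH24 added to the 13 calls, and 6 lower and 8 higher at 24 h, with XTH6, XTH20 and XTH24 added to the 11. At 12 h it had 8 lower and 8 higher against 1 WT library. Without WT 12 h replicate 1, 10 were lower and 5 higher at 0 h, 10 lower and 6 higher at 12 h and 6 lower and 7 higher at 24 h. The shares over all genes above are those of the main fit and do not belong to these alternative counts. Whether the added calls are particular to the members was not tested.

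**Figure D5:**
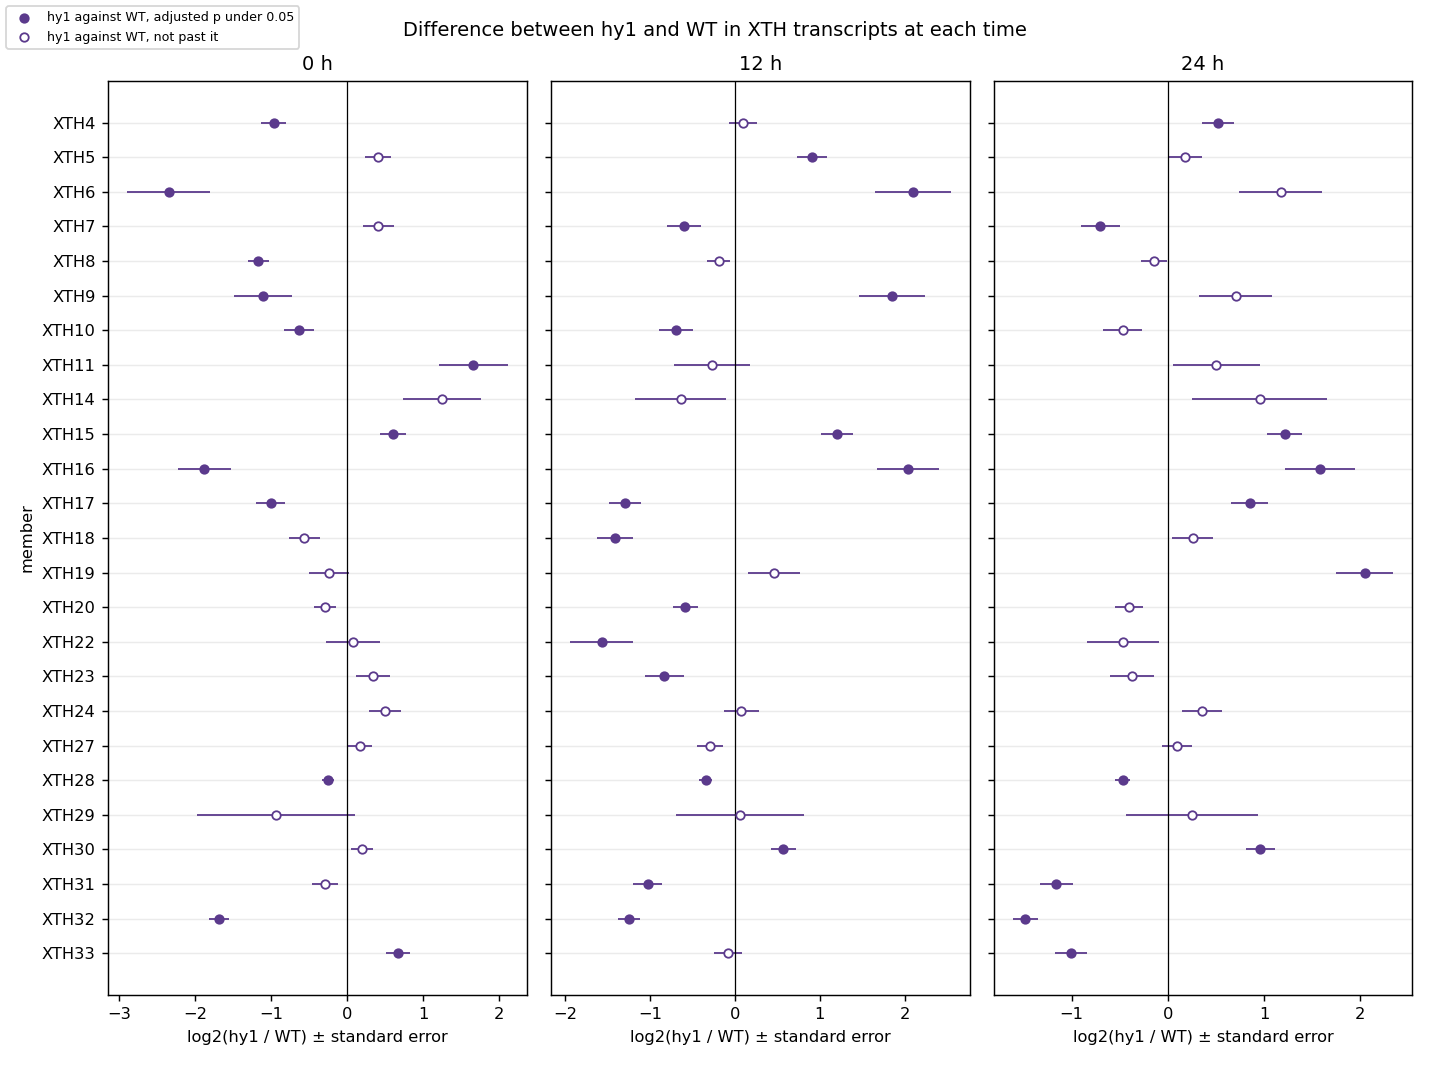
Log2 of hy1 over WT with its standard error for 25 tested members at 0 h, 12 h and 24 h; filled points passed an adjusted p of 0.05 and XTH26 is left out for its low counts. XTH32 lies left of 0 and XTH15 right of 0 in all 3 panels, while XTH6, XTH9 and XTH16 lie left at 0 h and right in light. At 24 h XTH6 and XTH9 did not pass the threshold.

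The change in light was compared between the genotypes directly, as the hy1 change minus the WT change. At 12 h, 5 of 26 members had a higher value in hy1 and 4 a lower one, where 6.73% and 6.8% of all genes had. At 24 h, 8 had a higher value and 3 a lower one, where 5.18% and 3.49% had. XTH4, XTH6, XTH8, XTH9 and XTH16 had the higher value at both times, by 1.06 and 1.49 for XTH4 (adjusted p = 0.00903 and 0.000826) and by 0.98 and 1.03 for XTH8 (adjusted p = 0.00403 and 0.00272). In XTH4 and XTH8 both genotypes fell, and the hy1 libraries began lower. XTH17 and XTH19 were added at 24 h (1.86 ± 0.27, adjusted p = 0.000442 and 2.28 ± 0.40, adjusted p = 0.00172). XTH33 fell more in hy1 at 24 h (-1.67 ± 0.23, adjusted p = 0.000272). For XTH9 the value at 24 h (1.82 ± 0.54, adjusted p = 0.0473) was lost without any 1 of hy1 0 h replicates 1, 2 and 3, hy1 12 h replicates 1 and 2, hy1 24 h replicates 1, 2 and 3, WT 0 h replicates 1, 2 and 3 or WT 24 h replicates 2 and 3 (adjusted p from 0.052 to 0.1). XTH7 fell more in hy1 at both times. Its value at 12 h (-1.01 ± 0.28, adjusted p = 0.0284) was lost without any 1 of hy1 0 h replicate 2, hy1 12 h replicates 2 and 3 or WT 0 h replicates 1 and 2 (adjusted p from 0.054 to 0.073) and under limma on FPKM at each of its settings (adjusted p from 0.054 to 0.074), and its value at 24 h (-1.11 ± 0.28, adjusted p = 0.0215) was lost without any 1 of hy1 0 h replicate 2, hy1 24 h replicate 3, WT 0 h replicate 2 or WT 24 h replicate 2 (adjusted p from 0.054 to 0.065) and under limma on log2(FPKM + 1) with no filter (adjusted p = 0.054). The value of XTH30 at 24 h (0.76 ± 0.21, adjusted p = 0.0339) was lost without any 1 of hy1 0 h replicates 1, 2 and 3, hy1 24 h replicates 1 and 2, WT 0 h replicates 2 and 3 or WT 24 h replicates 1 and 2 (adjusted p from 0.051 to 0.11).

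Genes for enzymes that make xyloglucan form a second list. The glucan backbone is built by CSLC proteins, xylose is added by XXT proteins, galactose by MUR3 and XLT2 and fucose by FUT1. Of 13 genes on this list 12 were tested, and XUT1 was not. In WT, 4 fell and 2 rose at 12 h (33.3% and 16.7%, against 25.3% and 28.3% of all genes) and 7 fell and 2 rose at 24 h (58.3% and 16.7%, against 23.1% and 24.6%). In hy1, 4 fell and none rose at either time (33.3%, where 21.3% of all genes fell at 12 h and 20.1% at 24 h). The share that fell was near that of all genes in WT at 12 h. Of the 2 rises in WT at 24 h, that of CSLC6 was lost under 26 alternatives, 16 of them single libraries, and that of XLT2 was lost without any 1 of WT 0 h replicates 1, 2 and 3 or WT 24 h replicate 3 (adjusted p from 0.051 to 0.13). The median log2 change of the 12 was -0.28 and -0.46 in WT and -0.03 and -0.14 in hy1. CSLC5, which was at 105 CPM in WT at 0 h and 53.1 at 12 h, fell, with a log2 change of -0.98 ± 0.11 (adjusted p = 1.74e-06) in WT and -0.87 ± 0.11 (adjusted p = 7.78e-06) in hy1. XXT1 fell, with a log2 change of -1.02 ± 0.16 (adjusted p = 8.78e-05) in WT and -1.71 ± 0.17 (adjusted p = 6.75e-07) in hy1. CSLC12 fell in WT from 4.45 to 1.44 CPM (-1.62 ± 0.26, adjusted p = 8.34e-05), with no call in hy1 (-0.53 ± 0.26). XLT2 rose in WT at 12 h by 2.66 ± 0.44 (adjusted p = 0.000129), or 1.78 without WT 12 h replicate 2 and 1.09 with replicate 1 alone.

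Against WT, 6 of the 12 were lower in hy1 at 0 h, 7 at 12 h and 3 at 24 h, and none was higher. These are 50.0%, 58.3% and 25% of the list, where 12.4%, 17.8% and 10.2% of all genes were lower. CSLC6 and MUR3 were lower at each time, for CSLC6 with a log2 difference of -0.37 ± 0.10, -0.78 ± 0.10 and -0.58 ± 0.10 and for MUR3 with a log2 difference of -0.40 ± 0.09, -0.51 ± 0.09 and -0.44 ± 0.10. In CSLC6 the call at 0 h was lost without any 1 of hy1 0 h replicate 1 or WT 0 h replicate 1 (adjusted p from 0.051 to 0.055), and in MUR3 the call at 12 h was lost under a fit of the compared groups alone (adjusted p = 0.074). Leaving aside the thresholds of p and fold, the calls on XXT2, XXT3 and XXT5 at 12 h were lost under 10, 1 and 6 alternatives. The call on CSLC5 at 0 h and that on XLT2 at 24 h were each lost under 8. XXT3 was lower at 0 h (-0.74 ± 0.13, adjusted p = 0.000763), and so was XXT2 (-0.55 ± 0.11, adjusted p = 0.00275). XLT2 was lower at 12 h with a log2 difference of -2.46 ± 0.44 (adjusted p = 0.000988), or -1.60 without WT 12 h replicate 2 and -0.90 with WT 12 h replicate 1 alone.

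Of 3 glycosidases that trim the side chains, 2 fell in both genotypes at both times, where 25.3% and 23.1% of all genes fell in WT and 21.3% and 20.1% in hy1. The galactosidase gene BGAL10 went from 113 to 51.1 CPM in WT (-1.15 ± 0.08, adjusted p = 2.52e-08) and from 77.9 to 40.03 in hy1 (-0.96 ± 0.08, adjusted p = 2.06e-07) at 12 h. The fucosidase gene AXY8 went from 102 to 50.6 CPM in WT (-1.02 ± 0.10, adjusted p = 4.42e-07) and from 89.6 to 46.99 in hy1 (-0.93 ± 0.10, adjusted p = 1.42e-06). XYL1, a xylosidase gene, had a call in WT at 12 h (0.52 ± 0.19, adjusted p = 0.0321) that was lost without any 1 of WT 0 h replicates 1, 2 and 3 or WT 12 h replicates 2 and 3 (adjusted p from 0.062 to 0.18) and under limma on FPKM at each of its settings, upper-quartile scaling, a fit of the compared groups alone and a fit without the 3 libraries set aside, where WT 12 h is replicate 1 alone (adjusted p from 0.055 to 0.91).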

How the data were processed

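Poly(A) RNA of hypocotyls was sequenced in 18 libraries, 6 groups of 3. The deposited counts are whole numbers per gene, made by the authors with featureCounts 2.0.3 on a TAIR10 annotation, per the file headers. The command set paired input with no strand option and no counting of reads with several positions. Reads of a gene and an antisense partner therefore cannot be told apart. The authors also deposited FPKM values. Recomputed from counts and exon lengths, FPKM was lower than the deposited values by a factor of 10, and the latter served alternatives alone. STAR 2.7.8a, StringTie 2.1.3 and HTSeq are named, with no role, per the submitters' processing notes. Deposited exon lengths in bases served CPM per kb.

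Counts were filtered with filterByExpr, which left 20955 of 32833 genes, scaled by TMM and fitted with edgeR 4.0.16 (R 4.3.3) quasi-likelihood over all 18 libraries with 1 mean per group. Each of 11 comparisons was adjusted by Benjamini-Hochberg over all tested genes, and a call is an adjusted p under 0.05. Shares over all genes beside member counts are from this fit, and those of the alternatives are not given. Standard errors are the log2 change over the root of F. The script was tested on simulated data. Alternatives were other scalings, filters and thresholds, DESeq2 1.42.0, limma 3.58.1 on log2(FPKM + 1) or log2(FPKM + 0.1), the compared groups alone, a replicate block, each library left out, and, chosen after seeing the data, the 3 libraries set aside left out. Values in every library are given for the 14 members with the largest called change among those of at least 5 CPM in a group. For the other lists up to 4 genes per comparison with the smallest adjusted p are named, and further ones were chosen after their values were seen. Members and lists were chosen with earlier results of these data known. Loci matched the TAIR10.1 annotation in position. One cellulose synthase-like gene was left out of the synthesis list because its symbol is not annotated there. Coding sequences were aligned with Biopython 1.88 (match 2, mismatch -1). Protein sequences were not used here. Counting by read pair was not set, per the file headers, so floors and intervals take 2 counts as 1 pair. Counting error alone sets the intervals and floors given.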

Additional observations from a re-analysis of the deposited data

Results flagged for a closer look

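For 9 members the change in light at 12 h differed between the genotypes at an adjusted p under 0.05, given here as the log2 change in hy1 minus that in WT. The values were 4.45 for XTH6, 3.93 for XTH16, 2.96 for XTH9, 1.06 for XTH4 and 0.98 for XTH8. They were negative for XTH22 (-1.65), XTH23 (-1.17), XTH7 (-1.01) and XTH33 (-0.75). Of these 9 calls, those on XTH22, XTH23 and XTH33 were lost when the 3 libraries set aside were removed (adjusted p = 0.199, 0.0785 and 0.0682), a fit in which WT 12 h is replicate 1 alone. Of the 18 libraries, 12, 7 and 11 ended these calls when left out singly, and without WT 12 h replicate 1 all 3 passed.

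At 24 h the difference passed for 11 members. It was positive for XTH6 (3.53), XTH16 (3.47), XTH19 (2.28), XTH17 (1.86), XTH9 (1.82), XTH4 (1.49), XTH8 (1.03) and XTH30 (0.76). It was negative for XTH33 (-1.67), XTH7 (-1.11) and XTH31 (-0.87).

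Among genes of the xyloglucan lists it passed for CSLC12 (1.56) and BGAL10 (0.65) at 24 h. Among marker genes it passed for STM at 12 h (2.16) and 24 h (2.11), for the root meristem gene PLT1 (-2.42 and -2.14) and for the stomatal lineage gene TMM at 12 h (4.02). PLT1 stood at 0.248, 0.609 and 1.11 CPM in WT and 1.67, 0.767 and 1.68 in hy1 at the 3 times. The part of these markers in the member results was not tested.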

How the results depend on the processing

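Of 151 calls on members over the 11 comparisons, 99 held under every alternative that tested them and 52 were lost or reversed under at least 1, while 37 pairs of member and comparison gained a call under at least 1. A threshold of adjusted p under 0.01 and a fold of at least 2 lose calls by construction. Calls on members went as follows. Under p of 0.01 they went from 13 to 8 for hy1 against WT at 0 h, from 9 to 5 for the difference of changes at 12 h and from 11 to 7 at 24 h. Under a fold of 2 they went from 6 to 3 in WT and from 3 to 1 in hy1 between 12 h and 24 h, and to 8, 9 and 6 between genotypes at 0 h, 12 h and 24 h. In fits of the compared groups alone they went from 6 to 2 in WT and from 3 to 5 in hy1 between 12 h and 24 h, and from 16 to 9 between genotypes at 12 h. Leaving out 1 library gave 5 to 10 calls between 12 h and 24 h in WT, 5 to 12 for the difference of changes at 12 h and 7 to 11 at 24 h. The cause was not tested.

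For the xyloglucan lists, counted together, a fold of 2 left 5 of 9 and 7 of 11 calls in WT at 12 h and 24 h, 2 of 6 in hy1 at each time, none of 1 in either late course, 1 of 7, 2 of 9 and 1 of 3 between genotypes and 1 of 2 for the difference of changes at 24 h. At p of 0.01 each late course had 0 calls and the difference of changes at 24 h had 1. Fits of the compared groups alone gave 0 in the late course of WT and 11 and 4 between genotypes at 0 h and 12 h. Without the 3 libraries set aside the late courses gave 0 and 3, and the genotypes 12 at 0 h and 6 at 24 h. DESeq2 gave 3 in the late course of WT and 5 for the difference of changes at 12 h, where edgeR gave 0 (4 synthesis genes and 1 trimming gene at an unadjusted p under 0.05) and upper-quartile scaling and each limma setting gave 1. Leaving out 1 library gave 0 to 5 and 0 to 1 in the late courses, 2 to 5 between genotypes at 24 h and 0 to 6 for the difference of changes at 12 h.

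Directions reversed in 3 cases. XTH16 between 12 h and 24 h in WT became 1.15 and XTH27 in WT at 12 h -0.018 without the 3 libraries set aside, where WT 12 h is 1 library, and the difference of changes of XTH26 at 12 h was -1.97 with limma on log2(FPKM + 1), with or without a filter. Deviations of same-numbered libraries from their group means correlated at -0.244 to 0.533 over 45 pairs, with r over 0.1 in 6. No values for pairs of unlike number were set beside these, so they cannot decide whether the numbers pair libraries. A replicate block ended 2 calls, XTH5 in the late course of WT (adjusted p = 0.051) and XTH33 for the difference of changes at 12 h (0.058). At these depths XTH29, with at most 12 reads a library, has a wide error.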
